A study of Mus musculus with 12 samples.

Results

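The longest 3′ UTRs of the mouse transcriptome, those of 5000 bases or more, were followed through precipitation of RNA with an antibody to CPEB4. Of 20586 3′ UTRs with a read count in 12 libraries, 419 were at least 5000 bases wide and had a summed raw count of at least 50, and another 21 of that width had fewer counts. The cells were of the 3T3-L1 line, mouse preadipocytes that form fat cells in culture, sampled as whole cultures. Every group carried the same treatments: induction until day 2 with rosiglitazone (2 µM), insulin (10 µg/mL), dexamethasone (1 µM) and IBMX (0.5 mM), insulin alone until day 8, and then 500 µM of free fatty acids for 24 h (palmitic acid at 300 µM, oleic and linoleic acid at 100 µM each). The 3 groups had 4 libraries each: RNA precipitated with the CPEB4 antibody (CPEB4 IP), RNA precipitated with an anti-IgG control antibody (IgG IP), and lysate RNA without precipitation (Input). All came from 1 cell line with no altered genotype named, and the labels do not call the replicates separate cultures. The p-values therefore reflect the spread among libraries, which may be technical.

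CPEB4 is an RNA-binding protein of the cytoplasmic polyadenylation element binding family. Its members bind short U-rich elements in 3′ UTRs and lengthen or shorten the poly(A) tail through the enzymes they recruit, which turns translation up or down. A 3′ UTR is the stretch between the stop codon and the poly(A) tail, and it carries most of the binding sites for such proteins and for miRNAs. Transcripts of regulatory genes and of neurons are known for unusually long 3′ UTRs, which give room for many such sites.

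Members ranged from 5000 to 23858 bases, with a median of 5942. Gene symbols were given for 410 of them, and 55 lay on chromosome 1 and 43 on chromosome 2. Another feature of the table overlapped 38 members (9.07%, against 12.3% of the 10301 features tested). In every library 6 members without a symbol had the same counts as a named member, so the class held 413 distinct sets of counts. The median member had 602 counts over all libraries and 88.4 counts per kb, against 311 counts and 281 counts per kb for all features tested. No member was at 0 in a whole group. Each member met the limit on the summed count and so entered the 12-library fit.

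Library totals ranged from 1114911 to 1159188 counts in CPEB4 IP, from 88013 to 622976 in IgG IP and from 858028 to 1578084 in Input. A floor of 3 counts in 1 library stood for 2.43 to 2.90 CPM (counts relative to the library total, scaled by TMM) in CPEB4 IP, 9.19 to 28.4 CPM in IgG IP and 1.68 to 2.54 CPM in Input. Low members were therefore measured least precisely in IgG IP. Counts of at least 1 were found for 391 to 419 members in CPEB4 IP, 378 to 415 in IgG IP and 303 to 404 in Input. All 12 adipocyte markers had counts in every group, and their summed level was 21309 to 24292 CPM in CPEB4 IP, 15338 to 26815 CPM in IgG IP and 8713 to 26665 CPM in Input. Lpl, Fabp4, Cebpa and Cd36 averaged higher in CPEB4 IP than in Input, and the others lower. The highest was Lpl, with 12887 CPM in CPEB4 IP, 13630 in IgG IP and 7340 in Input. Cfd averaged 30.5, 112 and 3175 CPM in CPEB4 IP, IgG IP and Input. The 6 macrophage markers summed to at most 27.6, 28.4 and 39.6 CPM in a library of these groups, in the same order. The 8 preadipocyte or fibroblast markers summed to 277 to 564 CPM in CPEB4 IP, 392 to 1172 CPM in IgG IP and 830 to 2552 CPM in Input. Pdgfra, Pdgfrb and Col3a1 were lowest in Input and Dlk1 in CPEB4 IP, while Col1a1, Col1a2 and Thy1 were highest in Input. Vim was also highest there and led the sum, averaging 28.9, 106 and 1076 CPM in CPEB4 IP, IgG IP and Input. The 4 muscle markers summed to 8.89 to 31.9, 28.4 to 109 and 124 to 351 CPM, mostly from Des, and the part of either list in the results was not tested. Replicates 1 and 2 carry another run of library numbers than replicates 3 and 4, and several values below differed along this line. Only Input was selected for poly(A), and the labels do not say which libraries had 12 and which had 18 PCR cycles.

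Sequence inside the members could be read where a miRNA hairpin lies within them. Of 1005 mouse hairpins placed on GRCm38.p6 by RefSeq, 6 fell inside members, all on the member's own strand: in Igf2bp1, Ppp2ca, Tnrc6b, Zbtb20, Vezt and Ubn2. The mature miRNAs of the first 4 hosts, which include 1 member that differed between the precipitates and the widest member of all, are shown with the seed (bases 2 to 8) in capitals. Their 10 mature products, counting Vezt and Ubn2, had 10 different seeds.
mmu-miR-3063-5p (Igf2bp1, chr11:95963347-95963367): uGGAGAUCagguuugcacacu
mmu-miR-3063-3p (Igf2bp1, chr11:95963304-95963325): uGAGGAAUccugaucucucgcc
mmu-miR-3061-5p (Ppp2ca, chr11:52126759-52126780): cAGUGGGCcgugaaagguagcc
mmu-miR-3061-3p (Ppp2ca, chr11:52126804-52126825): cUACCUUUgauaguccacugcc
mmu-miR-5113 (Tnrc6b, chr15:80940049-80940071): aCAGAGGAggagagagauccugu
mmu-miR-568 (Zbtb20, chr16:43640665-43640684): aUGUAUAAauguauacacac
The libraries did not measure these miRNAs themselves, and a count in the host's 3′ UTR says nothing of their processing. Ppp2ca, the catalytic subunit of protein phosphatase PP2A, averaged 412 ± 50.1 CPM in CPEB4 IP, against 308 ± 46.8 CPM in IgG IP and 149 ± 20.6 in Input (SD, n = 4 each). Tnrc6b, a partner of Argonaute in miRNA silencing, averaged 776 ± 174 CPM in CPEB4 IP, against 1002 ± 609.8 CPM in IgG IP and 159 ± 74.3 in Input (SD, n = 4 each). Both were higher in each precipitate than in Input, with log2 fold changes over Input of 1.46 in CPEB4 IP and 1.04 in IgG IP for Ppp2ca, and of 2.29 and 2.66 for Tnrc6b (edgeR adjusted p between 0.000383 and 0.0148).

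Long 3′ UTRs took a larger part of the reads in both precipitates than in Input. In the CPEB4 IP libraries 8.70%, 8.03%, 9.46% and 8.78% of all counts fell in members (replicates 1 to 4), and in the IgG IP libraries 6.98%, 6.53%, 4.99% and 5.78% did. The Input libraries gave 1.24%, 1.35%, 4.63% and 2.62%. The 3 groups did not overlap, with CPEB4 IP highest and Input lowest, and Input replicates 3 and 4 stood above replicates 1 and 2. The means were 8.74% ± 0.587 in CPEB4 IP, 6.07% ± 0.873 in IgG IP and 2.46% ± 1.58 in Input (SD, n = 4 each), and the 95% Wilson intervals of single libraries were 0.0364 to 0.326 points wide. The order of the precipitates rested on 1 feature, the 3′ UTR of Lars2, which held 4.60% to 23.7% of the counts in CPEB4 IP and 28.6% to 63.9% in IgG IP. Without it the shares were 10.2% ± 1.56 in CPEB4 IP, 12.1% ± 3.11 in IgG IP and 2.71% ± 1.67 in Input, and the precipitates overlapped. A smaller number of cells with an RNA and less of it per cell cannot be told apart in such libraries, nor can precipitation and the poly(A) selection that only Input went through.

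**Figure D1:**
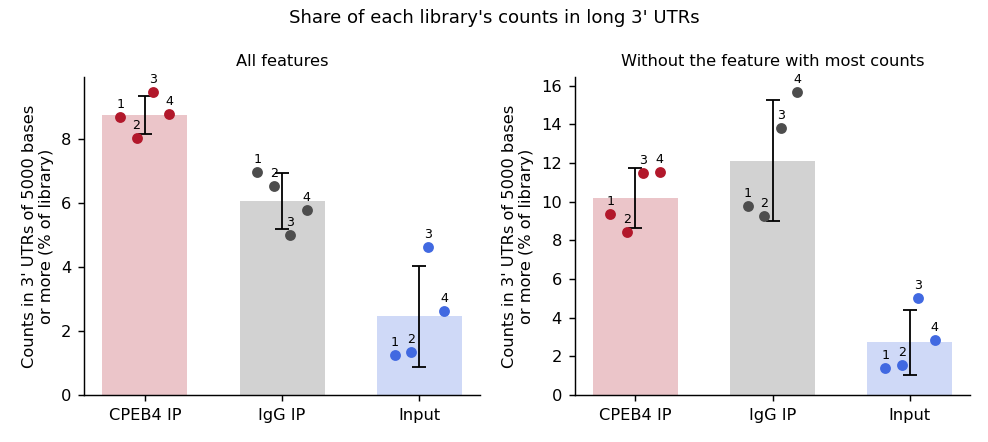
Percentage of each library's counts in 3′ UTRs of 5000 bases or more, with all features (left) and without the 3′ UTR of Lars2 (right); points are libraries marked by replicate number, bars are group means and error bars are SD (n = 4). With all features the 3 groups are apart; without Lars2 the CPEB4 IP and IgG IP libraries overlap and both lie above Input.

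The class stood at the end of a gradient with width. The median log2 fold change of CPEB4 IP over Input was -2.93 for 3′ UTRs under 500 bases, -0.37 for 500 to under 1000, 0.67 for 1000 to under 2000, 1.14 for 2000 to under 5000 and 1.28 for 5000 or more. Over the same classes the median of IgG IP over Input was -2.74, -0.65, 0.46, 1.14 and 1.46. Both precipitates thus held more of the longer 3′ UTRs relative to Input, and the 2 series share the Input libraries. Between the precipitates the medians were close to 0 in every class: -0.07, 0.21, 0.23, -0.02 and, for the long 3′ UTRs, -0.25. Over the 10301 features, which are no independent samples, Spearman's rho of width with the log2 fold change was 0.476 for CPEB4 IP over Input, 0.589 for IgG IP over Input and -0.037 for CPEB4 IP over IgG IP. Within the 419 members rho was -0.033 for CPEB4 IP over Input and -0.022 for CPEB4 IP over IgG IP, so the gradient did not continue inside the class.

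**Figure D2:**
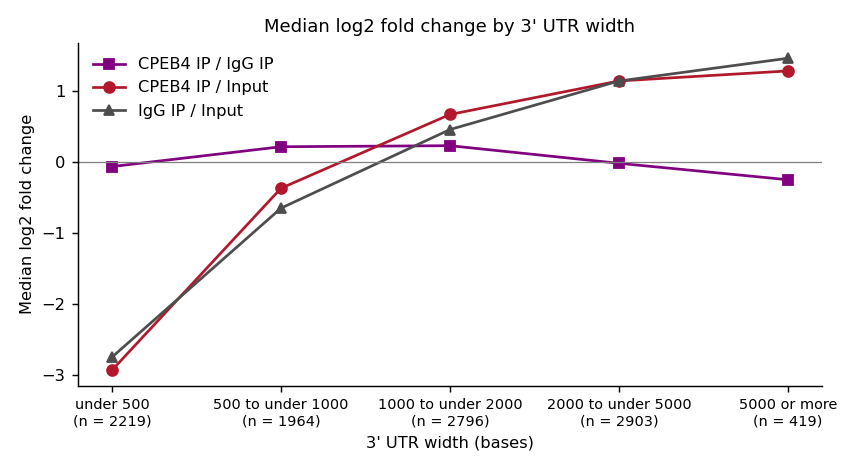
Median log2 fold change (vertical axis) of the features in 5 classes of 3′ UTR width in bases (horizontal axis), for CPEB4 IP over IgG IP (squares), CPEB4 IP over Input (circles) and IgG IP over Input (triangles). Both comparisons with Input climb from -2.93 and -2.74 in the narrowest class to 1.28 and 1.46 in the widest, while CPEB4 IP over IgG IP stays between -0.25 and 0.23.

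To find the long 3′ UTRs held by the CPEB4 antibody beyond the control antibody, CPEB4 IP was compared with IgG IP. Of the 419 members, 5 were higher in CPEB4 IP, those of Creb1, G3bp1, Igf2bp1, Celf1 and Ptbp3, and 1 was lower, that of Ncl (edgeR's quasi-likelihood test over all 12 libraries, Benjamini-Hochberg adjusted p under 0.05 over 10301 features). Of all features tested, 2.41% were higher and 0.825% were lower, so members were called no more often than features at large. Before adjustment 31 members (7.40%) were higher and 15 (3.58%) lower at an edgeR p under 0.05. The share of all features at that limit was not counted, so these numbers do not set the class apart. The median log2 fold change of the members was -0.25, against 0.06 for all features. Of the 5 higher members 4 encode RNA-binding proteins, and all 5 were also higher than Input.

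Creb1 encodes a transcription factor that is activated through cyclic AMP and turns on genes of the fat cell and of energy balance. Its 3′ UTR (mm10 chr1:64597379-64604547, plus strand, 7169 bases) had 472, 403, 377 and 415 CPM in the CPEB4 IP libraries, against 78.6, 56.9, 66.5 and 104 CPM in the IgG IP libraries. The Input libraries had 33.9, 18.7, 71.4 and 37.1 CPM. Every CPEB4 IP library lay several-fold above every library of both other groups. The log2 fold change over IgG IP was 2.42 (SE 0.43, edgeR adjusted p = 0.00541) and that over Input 3.36 (SE 0.42, edgeR adjusted p = 5.64e-06). IgG IP over Input was 0.95, which did not pass the test (edgeR adjusted p = 0.0896).

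G3bp1 encodes a core protein of stress granules, the RNA assemblies that form when translation stops. The G3bp1 3′ UTR (chr11:55499669-55504838, plus strand, 5170 bases) had 1651, 1943, 837 and 920.4 CPM in CPEB4 IP, against 322, 265, 171 and 297 CPM in IgG IP and 175, 152, 85.6 and 109 in Input. Replicates 1 and 2 were above replicates 3 and 4 in CPEB4 IP and in Input, and no CPEB4 IP library overlapped the other groups. Over IgG IP the log2 fold change was 2.34 (SE 0.40, edgeR adjusted p = 0.00429), and over Input it was 3.36 (SE 0.41, edgeR adjusted p = 3.86e-06). Igf2bp1, host of miR-3063, encodes a protein that binds and stabilises fetal and growth-related mRNAs. Its levels (chr11:95957163-95963499, minus strand, 6337 bases) were 357, 432, 207 and 219 CPM in CPEB4 IP, against 85.7, 94.8, 85.5 and 110.2 CPM in IgG IP and 60.5, 55.1, 85.0 and 59.5 in Input. The 3 groups did not overlap in that order, but IgG IP and Input came close to each other and their difference did not pass (log2 fold change 0.54, edgeR adjusted p = 0.289). The log2 fold change of CPEB4 IP over IgG IP was 1.68 (SE 0.38, edgeR adjusted p = 0.0226).

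Celf1 and Ptbp3 encode splicing regulators, and CELF1 also promotes decay of mRNAs with GU-rich elements in their 3′ UTRs. Celf1 (chr2:91013366-91019497, plus strand, 6132 bases) had 1529, 1675, 1218 and 1169.8 CPM in CPEB4 IP, against 350.1, 379, 532 and 683 CPM in IgG IP and 79.9, 83.9, 135 and 141 in Input. Here the 3 groups formed 3 separate steps, and IgG IP too was higher than Input (log2 fold change 2.15, edgeR adjusted p = 0.000176). CPEB4 IP over IgG IP was 1.52 (SE 0.35, edgeR adjusted p = 0.0237). Ptbp3 (chr4:59471868-59476882, minus strand, 5015 bases, just inside the width limit) had 797, 792, 508 and 538 CPM in CPEB4 IP, against 307, 275, 204 and 217 CPM in IgG IP and 107, 87.3, 165 and 161 in Input. Its groups did not overlap, and the log2 fold change over IgG IP was 1.40 (SE 0.35, edgeR adjusted p = 0.0347). Ptbp3 passed in 13 of 28 alternative settings, and neither with DESeq2 size factors nor with library totals in place of TMM.

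Ncl was the only member lower in CPEB4 IP than in the IgG IP. It encodes nucleolin, an abundant protein of ribosome assembly that also binds mRNA. Its 3′ UTR (chr1:86344719-86350619, minus strand, 5901 bases) had 56.8, 35.6, 95.8 and 66.7 CPM in CPEB4 IP, against 171, 171, 157 and 189.9 CPM in IgG IP and 212, 139.9, 195 and 214 in Input. All 4 CPEB4 IP libraries lay below all libraries of the other groups, which overlapped each other. The log2 fold change was -1.44 over IgG IP (SE 0.38, edgeR adjusted p = 0.0455) and -1.58 over Input (SE 0.37, edgeR adjusted p = 0.00190). The call against IgG IP held in 15 of 28 alternative settings. It was lost with library totals, with no filter, without any 1 of the IgG IP libraries and without CPEB4 IP replicate 1, 2 or 4. Of the 5 higher members, the call against IgG IP held in 25 of 28 settings for Creb1, 27 for G3bp1, 21 for Igf2bp1 and 19 for Celf1, beside the 13 for Ptbp3.

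**Figure D3:**
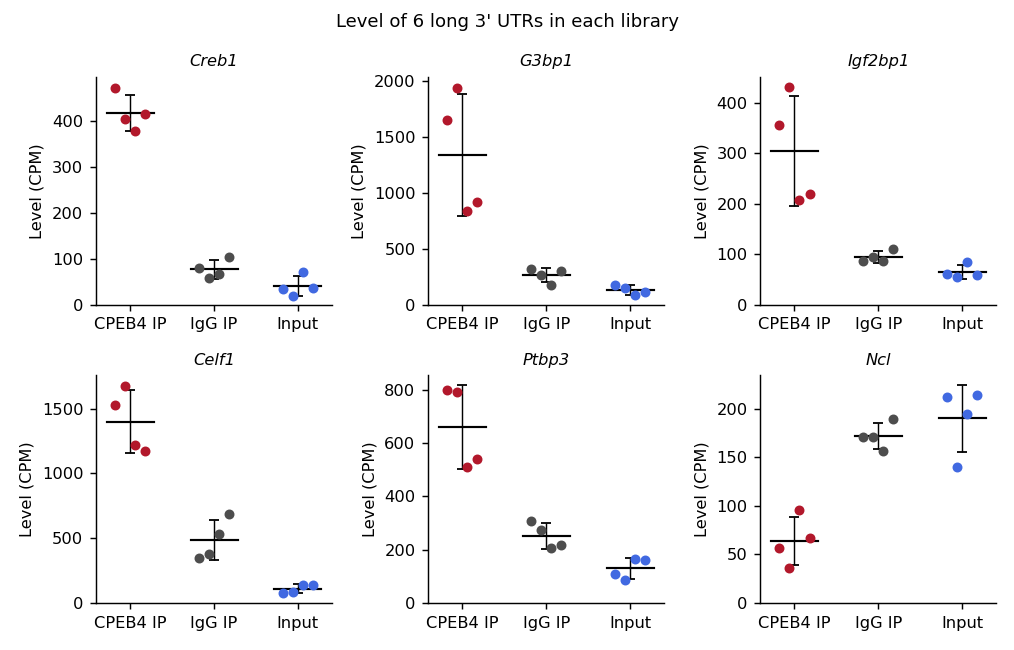
Level in CPM (linear vertical axes) of the 6 long 3′ UTRs that differed between CPEB4 IP and IgG IP; points are libraries, horizontal lines group means and error bars SD (n = 4). In the first 5 panels every CPEB4 IP point lies above every IgG IP and Input point, and in Ncl every CPEB4 IP point lies below them.

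The number of differences between the precipitates depended on how the spread was estimated. The biological coefficient of variation was 0.707 over the 12 libraries and 0.319 over the 8 precipitate libraries alone. In a fit of those 8 libraries 34 members were higher in CPEB4 IP and 38 lower, against 14.7% and 6.91% of all features. With the replicate number as a block 10 members were higher and 4 lower (3.32% and 1.08% of all features). The libraries of the 2 precipitates did not overlap for 52 members with CPEB4 IP above and 25 with CPEB4 IP below, against 18.4% and 6.35% of all features. In replicates 1 and 2 alone 12 were higher and 4 lower, against 3.31% and 1.15% of all features. In replicates 3 and 4 alone 0 of the 419 members and 0 of all 10301 features passed either way (edgeR). At an unadjusted edgeR p under 0.05, 25 members were higher and 13 lower there, and the share of all features at that limit was not counted. The 6 members named above had to have the same sign in all 4 replicates, so a shared direction of both pairs is no separate result. Creb1 had a log2 fold change over IgG IP of 2.59 in replicates 1 and 2 and 2.33 in replicates 3 and 4, G3bp1 2.53 and 2.03, and Ncl -1.97 and -0.96. Scaling shifted the balance of calls, with 4 higher and 4 lower under DESeq2 size factors and 7 higher and none lower under library totals. Of all features, 2.27% were higher and 1.81% lower under size factors, and 3.97% and 0.223% under library totals. Leaving out Input replicate 3 gave 11 higher and 6 lower, and leaving out replicate 1 or replicate 2 of every group gave 1 higher and none lower.

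The block added 5 higher members, Celf2, Kdm7a, Pank3, Rbfox2 and Vldlr, and 3 lower ones, AU022252, Amotl1 and Ralgapa2; they are named after their values were seen. Rbfox2 and Celf2 encode further splicing regulators, Kdm7a a histone demethylase, and Vldlr a receptor that brings triglyceride-rich lipoproteins into fat cells. Vldlr had 293, 272, 344 and 393 CPM in CPEB4 IP, against 100.0, 75.9, 161 and 159 CPM in IgG IP and 102, 31.4, 67.5 and 103 in Input. The precipitates did not overlap, with a log2 fold change over IgG IP of 1.36 and an edgeR adjusted p of 0.0883 without the block and 0.0356 with it. Celf2 had 735, 863, 1654 and 1869 CPM in CPEB4 IP, against 179, 199, 622 and 796 CPM in IgG IP and 87.9, 156, 185 and 307 in Input. Replicates 3 and 4 were above replicates 1 and 2 in each group. Its edgeR adjusted p against IgG IP was 0.127 without the block and 0.00624 with it.
Amotl1, which encodes a junction protein of the Hippo pathway, was the most abundant of the lower members. It had 295, 252, 819 and 831 CPM in CPEB4 IP, against 707, 1005, 3244 and 4584 CPM in IgG IP and 114, 158, 246 and 437 in Input. IgG IP stood above CPEB4 IP within each replicate number, although the ranges overlapped across them, and the log2 fold change was -2.12 (edgeR adjusted p 0.0627 without and 0.00231 with the block). IgG IP was also higher than Input (log2 fold change 3.32, edgeR adjusted p = 0.000546). Among members that the fit of the 8 precipitates added to the calls of the 12-library fit, again named after their values were seen, were the higher Socs4, a suppressor of cytokine signalling (log2 fold change 1.35 in that fit), and the lower Pfkfb2, a regulator of glycolysis (-2.04), and Arrb1, beta-arrestin 1, an adaptor of G-protein-coupled receptors (-1.54). Of the alternative settings, that fit included, Socs4 passed in 1 of 28, Pfkfb2 in 5 of 27 and Arrb1 in 2 of 28.

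**Figure D4:**
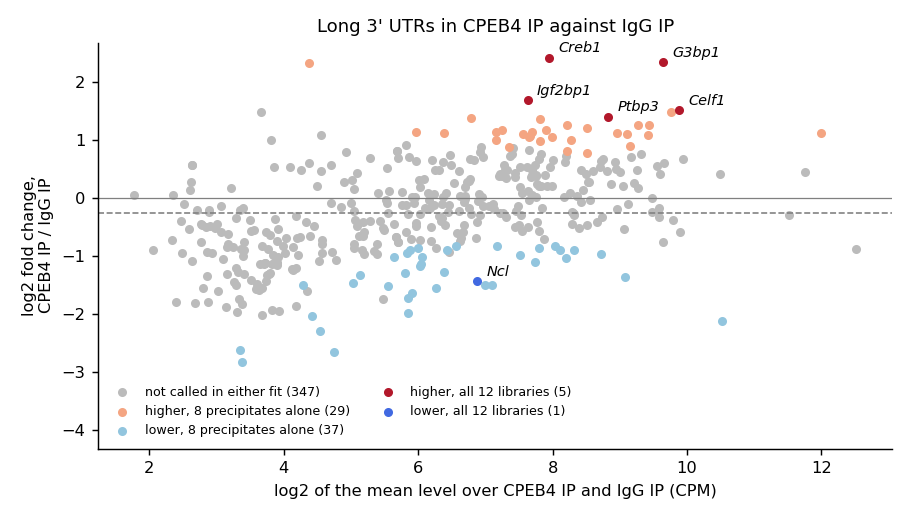
Log2 fold change of CPEB4 IP over IgG IP (vertical axis) against the log2 of the mean level over both precipitates (horizontal axis, CPM) for the 419 members; dark points passed with all 12 libraries, light points with the 8 precipitate libraries alone, and the dashed line is the members' median of -0.25. The 5 higher and 1 lower members of the first fit are labelled, and points at low levels lie mostly below 0.

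The members' median between the precipitates changed sign with the setting: it was -0.25 in the 12-library fit, but 0.16 with library totals, 0.19 without IgG IP replicate 4, 0.10 without IgG IP replicate 3 and 0.13 without replicate 4 of every group. The median over all features in these 5 fits was 0.06, 0.45, 0.44, 0.37 and 0.42, above that of the members each time. In the 12-library fit, members with a mean level under 30 CPM (146) had a median log2 fold change of CPEB4 IP over IgG IP of -0.83, those of 30 to under 200 CPM (194) of -0.08, and those of 200 CPM or more (79) of 0.28. Over all tested features of the same levels the medians were -0.14, 0.23 and 0.33. None of the 146 low members passed in the fit of all libraries, against 9 higher and 0 lower of the 5502 tested features of that level. In the 8 precipitates alone 1 low member was higher and 7 were lower, against 352 higher and 163 lower of the 5502 features. A floor of 3 counts in IgG IP reached 28.4 CPM.

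Against Input the class moved mostly 1 way. Relative to Input, 199 of the 419 members (47.5%) were higher in CPEB4 IP and 8 (1.91%) were lower, against 25.5% and 21.6% of all features tested (edgeR, adjusted p under 0.05). The median log2 fold change was 1.28 for members and 0.05 for all features. The CPEB4 IP and Input libraries did not overlap for 202 members with CPEB4 IP above and for 9 with CPEB4 IP below, against 29.7% and 19.1% of all features. With the replicate block 216 members were higher and 12 lower, against 28.6% and 19.7% of all features. In replicates 1 and 2 alone 223 were higher and 21 lower, against 23.9% and 28.8% of all features. In replicates 3 and 4 alone 131 were higher and 10 lower, against 17.7% and 12.6%. Of the 199 higher members 176 were also higher in IgG IP than in Input, 23 were not called there, and none was lower there. Of the 2622 features higher in CPEB4 IP than in Input, these counts were 1672, 941 and 9.

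Among the 10 members furthest above Input were metabolic, RNA-binding and gene-regulatory genes. Pank3, which encodes a pantothenate kinase that starts coenzyme A synthesis, had 4860.0, 4309, 6074 and 7189 CPM in CPEB4 IP, against 1986, 2304, 2166 and 3819 CPM in IgG IP and 99.2, 74.6, 211 and 167 in Input. Every precipitate library was many-fold above every Input library, and the log2 fold change was 5.34 for CPEB4 IP over Input (SE 0.45, edgeR adjusted p = 9.16e-08) and 4.22 for IgG IP over Input. It also had the most counts of all members, 29050. Qk encodes quaking, which controls splicing and mRNA stability, and had 508, 469, 929 and 960.0 CPM in CPEB4 IP, against 39.5, 42.4, 13.0 and 44.4 CPM in Input (log2 fold change 4.36, edgeR adjusted p = 1.23e-06). Rbfox2 had 1082, 1173, 821 and 840.1 CPM in CPEB4 IP, against 43.6, 50.9, 38.3 and 57.8 CPM in Input (log2 fold change 4.36, edgeR adjusted p = 1.73e-07). The mean IgG IP level of each of these genes lay between those of the other groups.

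Of the gene-regulatory members, Tbl1xr1, a subunit of the NCoR corepressor complex, averaged 756 ± 133 CPM in CPEB4 IP and 28.7 ± 24.0 CPM in Input (SD, n = 4 each; log2 fold change 4.70). Phip, a bromodomain protein, averaged 213 ± 27.3 CPM in CPEB4 IP and 9.27 ± 7.48 CPM in Input (log2 fold change 4.53). Atxn1l, a transcriptional corepressor, averaged 218 ± 10.7 CPM in CPEB4 IP and 9.80 ± 6.88 CPM in Input (log2 fold change 4.44). For these 3 members all CPEB4 IP libraries were above all Input libraries. Jmy, a cofactor of p300 and p53 that also nucleates actin, had 118, 112, 139 and 127 CPM in CPEB4 IP, against 19.4, 0, 0 and 0 CPM in Input. Its Input counts came from replicate 1 alone, 24 of 24, so the size of the log2 fold change of 4.71 depends on that library. Over the alternative settings the fold change ranged from 3.15 to 10.0, and the call held in 28 of 28. Megf9, a membrane protein with EGF-like repeats, had 138, 143, 207 and 249 CPM in CPEB4 IP, against 0, 0, 16.2 and 10.1 CPM in Input (log2 fold change 4.72). Ccdc50 and the dynein light chain gene Dnal1 completed the 10, with log2 fold changes of 4.48 and 4.85. The edgeR adjusted p-values of these 7 members were between 1.56e-06 and 0.000705.

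The 8 members lower than Input included 2 abundant RNA-binding protein genes. Serbp1, which encodes an mRNA-binding protein found on inactive ribosomes, had 213, 202, 165 and 170.2 CPM in CPEB4 IP, against 129, 94.8, 152 and 156 CPM in IgG IP and 1194, 1469, 690.2 and 1272 in Input. Input libraries were the highest without overlap, with a log2 fold change of -2.62 for CPEB4 IP over Input (edgeR adjusted p = 8.71e-06) and -3.10 for IgG IP over Input (edgeR adjusted p = 6.69e-06). Ncl, described above, was the other. Prex2, an exchange factor for the small GTPase Rac, had 6.49, 4.04, 8.40 and 8.70 CPM in CPEB4 IP, against 61.3, 45.8, 42.8 and 30.9 CPM in Input (log2 fold change -2.69, edgeR adjusted p = 0.00114). Fign, which encodes the microtubule-severing fidgetin, had 1.62, 2.43, 10.9 and 5.80 CPM in CPEB4 IP, against 8.87, 13.6, 147 and 47.7 CPM in Input (log2 fold change -3.36, edgeR adjusted p = 0.00584). Its groups overlapped, and most of its Input counts were in replicate 3. AU022252, Nav1 and Mtf1 were the other named members, with log2 fold changes of -2.12, -1.90 and -1.38, and 1 member had no symbol. Mtf1 was named after its values were seen, and another feature overlaps it.

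The control antibody was compared with Input in the same way. Of the 419 members, 191 were higher in IgG IP than in Input and 6 were lower, against 18% and 17.4% of all features tested, and the median log2 fold change was 1.46 for members and -0.02 for all features. The IgG IP and Input libraries did not overlap for 183 members with IgG IP above and for 6 with IgG IP below, against 17.6% and 16% of all features. In replicates 1 and 2 alone 197 were higher and 8 lower, against 14.4% and 21.9% of all features. In replicates 3 and 4 alone 109 were higher and 3 lower, against 11.1% and 9.92%. Within each replicate number IgG IP was the highest group for Sh3pxd2a, which encodes a scaffold of podosomes: 2784, 2671, 5348 and 5779 CPM in CPEB4 IP, against 3201, 2749.8, 10069.8 and 14338 CPM in IgG IP and 176, 199, 326 and 469 in Input. Its log2 fold change over Input was 3.82 in CPEB4 IP and 4.70 in IgG IP, and the difference between the precipitates did not pass (log2 fold change -0.87, edgeR adjusted p = 0.414).

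Members were also described by the role of the encoded protein, assigned from the gene symbols, and no test was made between the groups. The role groups and lists below stand beside shares for the whole class. Over Input, 47.5% of members were higher and 1.91% lower in CPEB4 IP, against 25.5% and 21.6% of all features. Over IgG IP, 1.19% of members were higher and 0.239% lower, against 2.41% and 0.825% of all features. Of 39 members that bind, process or silence RNA, 4 were higher in CPEB4 IP than in the IgG IP and 1 was lower, with a median log2 fold change of 0.47. These 39 had median levels of 233 CPM in CPEB4 IP, 170 in IgG IP and 43.8 in Input, against 69.0, 76.7 and 25.3 over all members. Of the 697 tested features with a mean level of 200 CPM or more, 84 were higher than IgG IP and 41 lower, with a median of 0.33. The part of the level in the values of the RNA group was not tested. Against Input 25 of the 39 were higher and 2 lower, with a median of 2.29. The higher ones covered miRNA silencing (Ago2, Ago3, Tnrc6b), decapping and deadenylation (Dcp2, Cnot6l), Roquin proteins that destroy mRNAs of immune genes (Rc3h1, Rc3h2), and splicing (Qk, Rbfox2, Celf1, Celf2, Ptbp3), all picked as examples after their values were seen. Ago2, the slicing Argonaute, averaged 679 ± 73.0 CPM in CPEB4 IP, against 849 ± 225 CPM in IgG IP and 126 ± 70.9 in Input (SD, n = 4 each), so that its rise over Input was shared by both precipitates. Dcp2, the decapping enzyme, averaged 208 ± 26.0 CPM in CPEB4 IP, against 188 ± 103 CPM in IgG IP and 13.6 ± 12.6 in Input (SD, n = 4 each). A list of 91 regulators of RNA silencing, translation and decay had 16 genes in the class, of which 3 were higher in CPEB4 IP than in the IgG IP and 14 higher than in Input. Its 65 tested genes with shorter 3′ UTRs gave 15 and 39.

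Transcription factors and their cofactors made up 68 members, with 1 higher and none lower in CPEB4 IP than in the IgG IP (median log2 fold change 0.06) and 41 higher and 1 lower than in Input (median 1.75). Sp1, a ubiquitous activator, had 941, 1029.9, 848 and 919 CPM in CPEB4 IP, against 386, 531, 389 and 447 CPM in IgG IP and 31.5, 19.5, 83.0 and 75.2 in Input. The groups were in 3 steps, yet the difference from IgG IP did not pass (log2 fold change 1.09, edgeR adjusted p = 0.158). Crebrf, a regulator of CREB3 that has been tied to fat storage in humans, averaged 681 ± 71.1 CPM in CPEB4 IP, against 309 ± 161 CPM in IgG IP and 39.9 ± 19.5 in Input (SD, n = 4 each). Nfia, a nuclear factor that promotes brown fat genes, averaged 1212 ± 315 CPM in CPEB4 IP, against 757 ± 213 CPM in IgG IP and 175 ± 63.2 in Input. Atf7, a factor of the CREB family, ran the other way between the precipitates, with 235, 253, 341 and 319 CPM in CPEB4 IP, against 472, 303, 613 and 842 CPM in IgG IP in overlapping ranges (log2 fold change -0.97, edgeR adjusted p = 0.208). The listed transcription factors numbered 22 long and 75 shorter 3′ UTRs, of which 19 and 43 were higher in CPEB4 IP than in Input.

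Relative to Input, 13 of 23 chromatin members were higher in CPEB4 IP and none lower (median log2 fold change 2.39), and of 26 ubiquitin members 17 and none (median 2.09). In the 12-library fit without the replicate block none of either group passed against IgG IP. In the 8 precipitates alone 2 chromatin members were higher and 1 lower. There 3 ubiquitin members were higher and 3 lower, against 14.7% and 6.91% of all features. Kdm7a had 1223, 1099, 619 and 558 CPM in CPEB4 IP, against 436, 398, 304 and 322 CPM in IgG IP and 227, 337, 270.5 and 344 in Input. In the 12-library fit it passed with the block but not without it (log2 fold change over IgG IP 1.27, edgeR adjusted p 0.0587 without and 0.0362 with the block). It passed in 8 of 28 alternative settings in all. Setd7, a lysine methyltransferase, averaged 158 ± 29.6 CPM in CPEB4 IP, against 285 ± 56.5 CPM in IgG IP (SD, n = 4 each), so CPEB4 IP was the lower group without overlap, but the difference did not pass (log2 fold change -0.86, edgeR adjusted p = 0.291). Rlim, a ubiquitin ligase known for X inactivation in the mouse, had 914, 826, 902 and 904 CPM in CPEB4 IP, against 53.2, 51.7, 64.9 and 46.0 CPM in Input (log2 fold change 4.03, edgeR adjusted p = 1.57e-07). Fbxo32, the ligase atrogin-1 known from wasting muscle, averaged 74.9 ± 19.4 CPM in CPEB4 IP, against 38.2 ± 20.4 CPM in IgG IP and 11.7 ± 10.1 in Input (SD, n = 4 each; CPEB4 IP over Input 2.68, edgeR adjusted p = 0.00239).

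Signalling genes were the largest group, with 72 members, of which 33 were higher and none lower in CPEB4 IP than in Input (median log2 fold change 1.46) and none passed against IgG IP (median -0.27) without the replicate block, with which Amotl1 was lower. Pik3ca, the catalytic subunit of the kinase that carries the insulin signal, had 186, 196, 221 and 243 CPM in CPEB4 IP, against 50.01, 75.9, 142 and 98.0 CPM in IgG IP and 46.0, 39.0, 65.5 and 99.9 in Input. CPEB4 IP was apart from both, but only the difference from Input passed (log2 fold change 1.75, edgeR adjusted p = 0.00182, against 1.18 and 0.142 for IgG IP). Igf1, the growth factor, had 156, 155, 67.2 and 77.3 CPM in CPEB4 IP, against 78.6, 66.4, 28.5 and 42.9 CPM in IgG IP and 37.1, 6.78, 48.6 and 26.9 in Input, with the first 2 replicates of each precipitate above the others. Gsk3b, a kinase that insulin switches off, averaged 713 ± 191 CPM in CPEB4 IP, against 708 ± 347 CPM in IgG IP and 150.0 ± 84.5 in Input (SD, n = 4 each). The precipitates overlapped, and the log2 fold change of CPEB4 IP over Input was 2.25. Cytokine receptors of the class included Il6st, the shared receptor chain gp130, with a log2 fold change of 2.58, and Lifr, its partner, with 2.70; the chemokine Cxcl12 had 2.28. The edgeR adjusted p-values of these 4 genes were between 3.13e-05 and 0.00552, and these 4 and Ago2, Dcp2 and Fbxo32 were chosen after their values were seen.

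Of 39 members of membrane traffic and the cytoskeleton, 19 were higher in CPEB4 IP than in Input and 1 lower (median log2 fold change 1.25). Of 56 members of transport and metabolism 24 were higher and none lower (median 1.09). Over all members 47.5% were higher and 1.91% lower, and over all features 25.5% and 21.6%, so neither group stood apart from the class. Rab22a, an endosomal GTPase, averaged 269.7 ± 33.6 CPM in CPEB4 IP, against 203 ± 59.3 CPM in IgG IP and 26.0 ± 13.3 in Input (SD, n = 4 each). Cds2, an enzyme of phosphatidylinositol synthesis, averaged 194 ± 40.1 CPM in CPEB4 IP, against 393 ± 192 CPM in IgG IP and 25.6 ± 16.9 in Input. Both were higher in each precipitate than in Input, with log2 fold changes of 3.36 and 2.93 for CPEB4 IP. Neither passed between the precipitates, where the log2 fold change was 0.39 for Rab22a and -1.03 for Cds2.

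The other lists of regulators and surface genes are given here by their long 3′ UTRs and then their shorter ones. Against Input, CPEB4 IP was higher for 7 of 10 long and 48 of 74 shorter 3′ UTRs of insulin, growth factor and cytokine signalling, 9 of 13 and 31 of 52 of chromatin regulators, and 4 of 6 and 46 of 66 of ubiquitin ligases and deubiquitinases. It was higher for 5 of 10 long and 45 of 74 shorter 3′ UTRs of small GTPases and traffic, none of 3 and 25 of 60 of cell surface and matrix genes, and 8 of 16 and 35 of 67 of channels, transporters and lipid handling. No long 3′ UTR of these 6 lists passed against IgG IP in the 12-library fit. With the replicate block Kdm7a of the chromatin list and Vldlr of the channel, transporter and lipid list were higher. The 8 precipitates alone gave 3 higher long 3′ UTRs of the signalling list, 2 higher and 1 lower of the chromatin list, 1 higher of the surface list, and 1 higher and 2 lower of the channel, transporter and lipid list. Among the shorter 3′ UTRs of these lists, in the same order, 24, 13, 9 and 23 were higher and 1, 0, 4 and 1 lower. The ubiquitin and traffic lists had no long 3′ UTR called in that fit, against 13 and 18 higher and 1 and 3 lower among their shorter ones. Of all features 14.7% were higher and 6.91% lower.
Map3k2, a kinase of the ERK5 pathway, had 307, 315, 269.6 and 248 CPM in CPEB4 IP, against 121, 94.8, 157 and 138 CPM in IgG IP and 29.0, 35.6, 56.4 and 11.8 in Input. Its groups were in 3 steps, but the difference from IgG IP did not pass (log2 fold change 1.14, edgeR adjusted p = 0.159). Kdm5a, a histone demethylase overlapped by an unnamed transcript, had the same order, with a log2 fold change over IgG IP of 1.05 (edgeR adjusted p = 0.128). Pcdh19, a cell adhesion protein, had 34.1, 21.8, 30.2 and 55.1 CPM in CPEB4 IP, against 7.14, 0, 4.75 and 12.2 CPM in IgG IP and 4.84, 3.39, 46.7 and 6.18 in Input. It was apart from IgG IP with a log2 fold change of 2.32, yet at these low levels it did not pass (edgeR adjusted p = 0.232). Vapb, a tether of the endoplasmic reticulum, ran the other way with -1.50 (edgeR adjusted p = 0.118). Log2 fold changes over IgG IP were 0.38 for Ap3m1, which Vcl overlaps, -0.47 for Fbxl20, -0.41 for Arhgef12, -0.50 for Braf and -0.76 for Lpp. None of these passed, and their CPEB4 IP and IgG IP libraries overlapped. Rnf165, Rnf169, Itsn1, Cadm2 and Sema5a had -1.88, -0.92, -0.73, -1.96 and -0.40 at low levels and did not pass either.

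**Figure D5:**
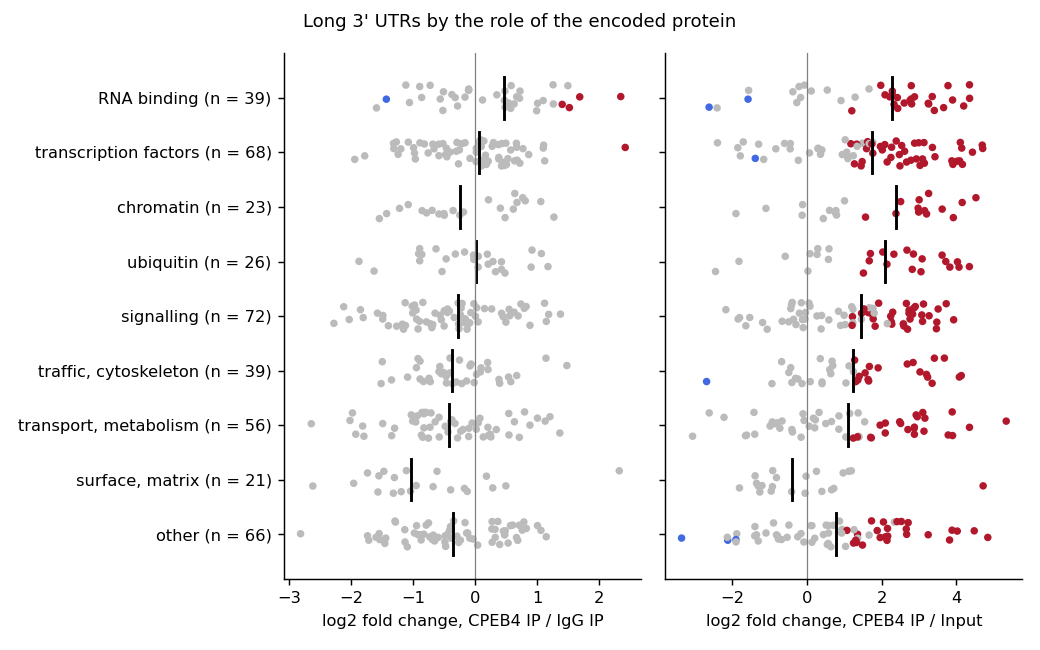
Log2 fold change of CPEB4 IP over IgG IP (left) and over Input (right) for the 410 members with a symbol, in rows by the role of the encoded protein; red points were higher and blue points lower past the threshold, grey points did not pass, and black bars are medians. The median of the RNA-binding row is the highest on the left at 0.47, and that of the surface row is the lowest on both sides.

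Few surface and neuronal members differed from Input, and these groups had low levels. Of 21 members for surface and matrix proteins, 1 was higher in CPEB4 IP than in Input, Megf9, and the median log2 fold change was -0.41. Of 43 members known mainly from neurons, which overlap with other groups, 2 were higher and 1 lower, and the median was also -0.41, against 1.48 for the other 376. Their median level was 7.12 CPM in CPEB4 IP, against 15.7 CPM in IgG IP and 9.99 in Input. The medians were 69.0, 76.7 and 25.3 CPM over all members, in the same order. The median neuronal member had a summed count of 115. Of the 146 members under 30 CPM 5 passed above Input and 2 below it in CPEB4 IP, against 555 and 963 of the 5502 features of that level. Of the neuron markers, Rbfox3 had 4 counts in CPEB4 IP, 2 in IgG IP and 84 in Input, and Snap25 had 15, 14 and 52 in the same order. Tubb3 was at 0 in IgG IP, and Syp was at 0 in every group, but its feature is only 4 bases wide. The 4 neuron markers summed to 3.23 to 7.30 CPM in CPEB4 IP, 4.75 to 94.8 CPM in IgG IP and 8.07 to 49.3 CPM in Input, and their part in these values was not tested. Grin2b, an NMDA receptor subunit and the second widest member at 18866 bases, had 8.11, 7.28, 57.1 and 43.5 CPM in CPEB4 IP, against 14.3, 37.9, 128 and 39.8 CPM in IgG IP and 13.7, 22.9, 117 and 66.2 in Input. Replicates 3 and 4 held most of its counts in CPEB4 IP and Input. Slc1a2, a glutamate transporter, had 1.62, 0, 14.3 and 12.6 CPM in CPEB4 IP, against 28.6, 104, 33.2 and 21.4 CPM in IgG IP, and did not pass (log2 fold change -2.65, edgeR adjusted p = 0.242).

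The widest member of all was Zbtb20, at 23858 bases (chr16:43618745-43642602), host of miR-568 and gene of a zinc-finger repressor; another feature of the table overlaps it. It had 1299.7, 1209, 2059 and 2065 CPM in CPEB4 IP, against 450.1, 503, 1601 and 2370.2 CPM in IgG IP and 186, 312, 798 and 1125 in Input. In each group replicates 3 and 4 were higher than 1 and 2, and the log2 fold change over Input was 1.45 (edgeR adjusted p = 0.0434, and 0.000359 with the replicate block). That call held in 8 of 28 alternative settings and was lost with DESeq2, size factors, library totals and filterByExpr, among others. IgG IP over Input was 1.03 (edgeR adjusted p = 0.171, and 0.0220 with the block). Strbp, Pura and Tmem245 followed in width, with 14162, 13394 and 13324 bases. Pura, which encodes a single-stranded DNA and RNA binding protein, averaged 367 ± 57.4 CPM in CPEB4 IP, against 219.9 ± 109 CPM in IgG IP and 74.9 ± 37.7 in Input (SD, n = 4 each) and was higher in both precipitates than in Input. Of the 63 members of 8000 bases or more, none passed between CPEB4 IP and IgG IP, 28 were higher and none lower in CPEB4 IP than in Input.

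Among the 10 members with the most counts, Peg10 split by replicate pair more than by antibody. This imprinted gene of retroviral origin had 752, 576, 5039 and 4206 CPM in CPEB4 IP, against 1250.3, 939, 5842 and 4845 CPM in IgG IP and 22.6, 77.1, 274 and 199 in Input. Replicates 3 and 4 were above 1 and 2 in every group, and within each replicate number IgG IP was above CPEB4 IP and both were far above Input. Lrrc58 had 3015, 2496, 4817 and 5632 CPM in CPEB4 IP, against 1829, 1612, 3396 and 4811 CPM in IgG IP and 206, 162, 308 and 299.8 in Input. Its log2 fold change over Input was 4.03 in CPEB4 IP and 3.58 in IgG IP. Pank3, Sh3pxd2a, Zbtb20, Celf1, Serbp1, Celf2, G3bp1 and Nfia made up the rest of the 10.

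At the limit of 5000 bases the narrowest members were Slc35b4 (5000), Elovl6 (5005) and Unc13a (5006), with log2 fold changes of CPEB4 IP over Input of 2.10, 1.15 and -0.94. Just outside it lay Ralgps2 (4998), Bcl11b (4997) and Pde10a (4992), with -0.41, -1.40 and 0.82. Elovl6 elongates fatty acids such as palmitate, which the cells received, and had 18.6, 11.3, 31.9 and 22.2 CPM in CPEB4 IP, against 7.14, 0, 23.7 and 21.4 CPM in IgG IP and 1.61, 3.39, 14.3 and 18.0 in Input. Unc13a overlaps a neighbouring feature. The 3′ UTRs of Cpeb4, Cpeb2 and Cpeb3 themselves were narrower, at 4102, 3778 and 3569 bases, and their log2 fold changes of CPEB4 IP over the IgG IP were 2.34, 2.31 and 1.95; that of Cpeb4 passed the test (edgeR adjusted p = 0.00855). That of Cpeb2 passed with the replicate block but not without it (edgeR adjusted p 0.0548 without and 0.0423 with it).

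The authors' deposited table holds a call for the interaction of both antibodies with Input. It called 7 long 3′ UTRs higher and 10 lower, of which 2 and 2 had an adjusted p under 0.05 in the authors' deposited table, against 4.20% and 6.03% of the tested features. All 5 members higher than IgG IP in the 12-library fit were among its 7, with Kdm7a and Rbfox2, and Ncl was among its 10. In the authors' deposited table the adjusted p was 0.0463 for Creb1 and 0.000426 for G3bp1. It was above 0.05 for Igf2bp1 (0.0889), Celf1 (0.117) and Ptbp3 (0.186) in the authors' deposited table. These calls come from the same libraries, so the overlap is no independent check. The authors' deposited table gave 7 of the 34 higher and 9 of the 38 lower members of the precipitate fit a call in the same direction.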

How the data were processed

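Sample titles gave the group and the replicate number. The comparisons are CPEB4 IP over IgG IP, CPEB4 IP over Input and IgG IP over Input. The authors deposited 1 table with raw read counts per library for 20586 3′ UTRs in mm10 coordinates, which were used as deposited. Per the submitters' processing notes, the reads went through featureCounts, Bowtie2 2.2.2, Bowtie 1.2.3 and DESeq2 1.22.1 with the mm10 build. Whether strand was used in counting is not given in the sources used here, so values of overlapping features are uncertain. The authors' interaction fold change, adjusted p and call, read as scores from the deposited table, were used only where that table is named, and 12 columns of normalised values were not used.

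The 10301 features with a summed count of at least 50 were tested with edgeR 4.0.16 in R 4.3.3 (TMM scaling, quasi-likelihood test, 1 coefficient per group over 12 libraries, Benjamini-Hochberg adjustment, adjusted p under 0.05). Standard errors are the log2 fold change divided by the square root of F, and fold changes used a prior count of 0.125. CPM are counts relative to the TMM-scaled library total. The code was tested on simulated data. Same-numbered libraries deviated together from their group means. The correlations were 0.152 to 0.311 for CPEB4 IP with IgG IP and 0.195 to 0.304 for CPEB4 IP with Input. They went down to 0.0495 for IgG IP with Input. Correlations between differently numbered libraries were not computed. A difference between the 2 runs of library numbers could give the values above too. The correlations therefore cannot show whether the numbers pair the samples. The fit with a replicate block is printed as an alternative where it changes a call. Wilson intervals and floors cover only counting error, because PCR copies were not told apart by molecular identifiers.

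The members and the 8 gene lists were chosen with earlier results of these data known. Named were up to 12 and 8 members by fold change against IgG IP and 10 and 6 against Input (past the threshold, same sign in 4 replicates, summed count of at least 200), the 5 widest, the 10 with most counts, up to 4 per list by p, and the features next to the limit. Roles came from symbols alone. Alternatives covered scaling, test, filter, samples, blocks, depth and width. No mouse genome was used, so the 3′ UTR sequences were not analysed here; miRNA sequences are from RefSeq on GRCm38.p6. Some members that the naming rule covers are not reported here.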

Additional observations from a re-analysis of the deposited data

Results flagged for a closer look

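In 7 of 186 groups of 4 libraries (61 members chosen for naming and the share of counts, 3 groups each), 1 library lay far from the other 3 by Dixon's criterion, and chance flags about 1 group in 20. Rlim was low in CPEB4 IP replicate 2 with 826 CPM, Fign was high in IgG IP replicate 3 with 33.2 CPM, and Slc1a2 and Vapb were high in IgG IP replicate 2 with 104 and 284 CPM. In Input, Jmy was high in replicate 1 with 19.4 CPM, Pcdh19 was high in replicate 3 with 46.7 CPM, and Qk was low in replicate 3 with 13.0 CPM.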

How the results depend on the processing

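For CPEB4 IP over IgG IP, the count of 5 higher members became 10 with the DESeq2 Wald test, 34 with the 2 groups alone, 10 with the replicate block, 13 with the library number as a block, 12 in replicates 1 and 2, 0 in replicates 3 and 4, and 11 and 1 for widths of at least 4000 and 7000 bases. The 1 lower member became 4 with DESeq2 size factors, 0 with library totals, 16 with DESeq2, 11 with a summed count of at least 500, 38 with the 2 groups alone, 4 with the replicate block, 5 with the library number block, 4 and 0 in the 2 pairs of replicates, 6 after thinning to the lowest total, and 2 and 0 for the other widths. Of all features, 4.87% were higher and 4.94% lower with the DESeq2 Wald test, and 4.31% and 1.64% with the library number block. With a summed count of at least 500 these shares were 7.69% and 10.5%, and after thinning 2.78% and 1.16%. For CPEB4 IP over Input, the 199 higher members became 131 in replicates 3 and 4, and 371 and 49 for the other widths. The 8 lower ones became 24 with size factors, 15 with totals, 30 with DESeq2, 18 with filterByExpr, 16 without a filter, 17 with a summed count of at least 500, 15 with the library number block, 21 in replicates 1 and 2, 20 after thinning, and 24 and 2 for the other widths. Of all features, from 13.5% (without a filter) to 39.0% (summed count of at least 500) were lower in these fits. For IgG IP over Input, the 191 higher members became 106 with totals, 116 with the 2 groups alone, 109 in replicates 3 and 4, and 356 and 47 for the other widths. Of all features, 10.7% were higher with totals, 8.99% with the 2 groups alone and 11.1% in replicates 3 and 4. The 6 lower members became 3 in replicates 3 and 4, and 17 and 2 for the other widths. Leaving out 1 replicate number or 1 library gave 1 to 11 higher and 0 to 6 lower members for CPEB4 IP over IgG IP, 148 to 219 and 8 to 18 for CPEB4 IP over Input, and 99 to 210 and 2 to 8 for IgG IP over Input. Shares of counts in CPEB4 IP, IgG IP and Input were 14.8%, 10.3% and 4.64% from 4000 bases, 2.66%, 1.77% and 0.835% from 7000 bases, and 10.2% and 12.1% in the precipitates without Lars2. The median log2 fold change of members minus that of all features was -0.31, 1.23 and 1.48 for the 3 comparisons in the order above, and ranged from -0.419 to -0.128, 0.691 to 1.98 and 0.945 to 2.21 over all settings. With duplicated counts taken once, an alternative chosen after seeing the data, calls were 5 and 1, 199 and 8, and 191 and 6 of 413.

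Of 27 named members over Input, 27 kept their direction in every alternative run for CPEB4 IP and 23 also stayed past the threshold. Those named by fold change had to have the same sign in all 4 replicates. None of the 6 that passed against IgG IP did so in all alternatives. Some values changed sign. For CPEB4 IP over IgG IP, Rnf165 had 3.06 in replicates 1 and 2, Fbxl20 had -0.70 to 0.048 over the fits that left out 1 library or replicate number, Arhgef12 had 0.10 with totals, 0.044 in replicates 1 and 2 and -0.68 to 0.23 over those fits, Itsn1 had 0.62 in replicates 1 and 2 and -1.20 to 0.018, and Sema5a had 0.012 with totals, 0.061 in replicates 3 and 4 and -0.79 to 0.11. For IgG IP over Input, Zbtb20 had -0.085 to 1.52. The upper end of the first 3 ranges and the lower end of the last came without IgG IP replicate 4, and that of Sema5a without replicate 2. The cause was not tested for any of these. Depth limits most the members under 30 CPM in IgG IP.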
